A study of Petunia x hybrida with 48 samples.

Results

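TAR2 and GH3 are 2 auxin genes of petunia, followed here over every bud and phosphate treatment of the series. TAR2 (Peaxi162Scf00689g00027.1) encodes a tryptophan aminotransferase-related protein, and GH3 (Peaxi162Scf00007g01617.1) encodes a member of the GH3 family of enzymes that attach amino acids to free auxin. They are 2 of 34301 genes in the table of experiment 1 and 2 of 32830 in that of experiment 3. Both were picked by name, with their bud position values from these libraries known, so differences between bud positions are given as values without a test. The names follow the study's annotation, in which both genes are matched to Arabidopsis proteins.

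Axillary buds of petunia grown in hydroponic medium were collected from nodes 2, 3, 6 and 7 of the main stem, counting upward from the first node above the cotyledons. In experiment 1, plants raised in high phosphate (high P, 250 uM) were moved for 24 h either to fresh high P medium or to low P medium (5 uM). In experiment 3, plants kept in low P either stayed there or were moved to high P for 24 h. Each of the 8 groups of an experiment had 3 libraries, each made from a pool of buds of 6 to 7 plants, giving 24 libraries per experiment and 48 in all. All plants were of 1 inbred line, so bud position and phosphate supply were the variables within an experiment.

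Auxin (indole-3-acetic acid) is made from tryptophan in a short pathway known best from Arabidopsis. Enzymes of the TAA and TAR family form indole-3-pyruvate, and YUCCA enzymes turn it into auxin. GH3 enzymes lower the free pool by joining auxin to amino acids, and transcription of many GH3 genes is itself raised by auxin. In shoots, auxin made in young leaves and growing buds is exported down the stem, and basal buds in petunia usually remain small while upper buds can grow out.

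Normalized counts of a library summed to between 39733086 and 46381919 in experiment 1 and between 82964169 and 95608712 in experiment 3. The experiments were normalized separately, so levels were compared only within an experiment. The library of low P bud 3 replicate 3 in experiment 3 stood apart from its group. Its count for DRM1, a marker of dormant buds, was 18587, against 2796 and 3609 in the other low P bud 3 libraries, and its count for CDKB1, a cell cycle kinase, was 2259, against 7561 and 5295. Results on bud 3 in low P of experiment 3 are given with and without it. In experiment 3 the phosphate treatments separated SPX3, a phosphate starvation gene, in each bud, with means of 15119 in low P and 446 in high P in bud 2. In experiment 1 the corresponding bud 2 means were 91.1 and 67.2.

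TAR2 transcripts were close to the detection limit in bud 2 and abundant in buds 6 and 7, in both experiments and both treatments. In experiment 1, the high P bud 2 libraries had normalized counts of 1.37, 3.64 and 0, and the low P bud 2 libraries 0, 9.95 and 2.40. The bud 6 libraries had 520, 691 and 658 under high P and 540, 738 and 623 under low P. Those of bud 7 had 432, 607 and 657 under high P and 676, 542 and 469 under low P. Every library of buds 6 and 7 was thus at 432 or more, and no library of bud 2 exceeded 9.95. Within the upper pair of buds the 4 groups overlapped each other in value, so their order by mean, from 562 in low P bud 7 to 634 in low P bud 6, was smaller than the spread between pools.

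On the log2(normalized count + 1) scale, TAR2 was higher in bud 6 than in bud 2 by 8.12 ± 0.69 (SE, 3 libraries per group) in high P and by 7.56 ± 0.69 in low P of experiment 1. The corresponding differences for bud 7 were 7.97 ± 0.69 and 7.38 ± 0.69. Because bud 2 lay near 0, these differences depend on the added constant. With 5 in place of 1, the bud 6 differences were 6.58 and 6.27.

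GH3 had the reverse arrangement in experiment 1, high in the basal buds and low in the upper ones. In bud 2 its normalized counts were 2141, 2154 and 3624 under high P and 2380, 3499 and 2913 under low P. In bud 6 they were 174, 91.6 and 134 under high P and 113, 167 and 173 under low P. The mean in bud 2 was 19.8 times that in bud 6 in high P and 19.4 times in low P, with no overlap between the libraries. Bud 7 was intermediate but near bud 6, with 188, 280 and 285 under high P and 281, 248 and 281 under low P. In low P, all bud 7 libraries were above all bud 6 libraries of the same treatment, and in high P the bud 7 libraries were also all above those of bud 6. Differences from bud 2 were -4.30 ± 0.36 (SE) for bud 6 and -3.37 ± 0.36 for bud 7 under high P, and -4.28 ± 0.36 and -3.42 ± 0.36 under low P.

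**Figure D1:**
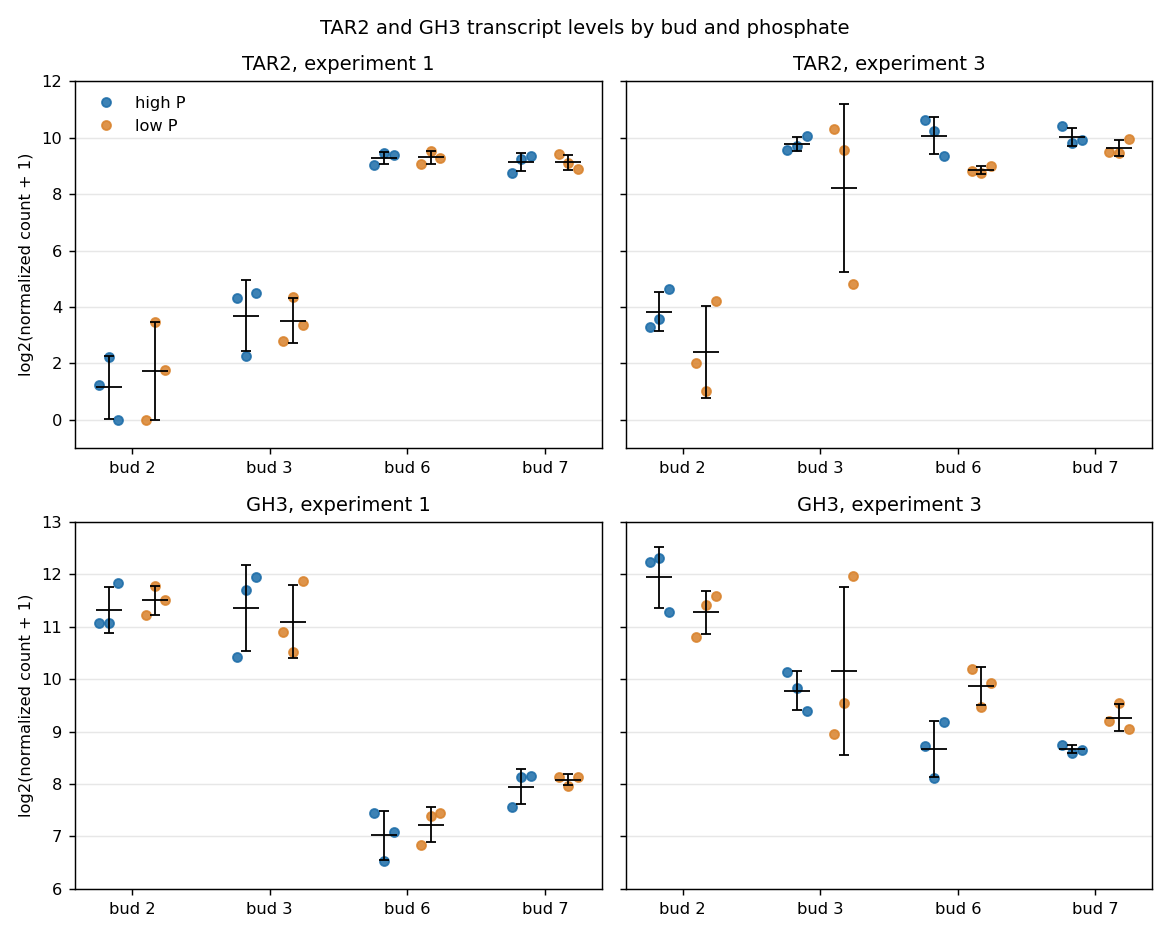
Levels of TAR2 (upper panels) and GH3 (lower panels) in every library, as log2(normalized count + 1), by bud on the horizontal axis and by phosphate treatment in color, with bars for the mean and SD of 3 libraries. TAR2 libraries of buds 6 and 7 lie above all bud 2 libraries in both experiments, GH3 libraries of buds 6 and 7 lie below all bud 2 libraries, and in experiment 3 the low P bud 3 library with 26.8 for TAR2 and 3995 for GH3 sits with bud 2.

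The same opposite arrangement was present in experiment 3. TAR2 in bud 2 was 8.84, 11.0 and 23.7 under high P and 3.07, 1.01 and 17.5 under low P. In bud 6 it was 1576, 1206 and 647 under high P and 455, 424 and 513 under low P. In bud 7 it was 1347, 888 and 957 under high P and 720, 693 and 989 under low P. The lowest upper bud library, at 424, was far above the highest bud 2 library, at 23.7. Bud 6 exceeded bud 2 by 6.23 ± 0.95 (SE) in high P and 6.44 ± 0.95 in low P on the log2 scale.

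GH3 in bud 2 of experiment 3 was 4840, 5051 and 2474 under high P and 1796, 2742 and 3074 under low P. In bud 6 it was 422, 275 and 579 under high P and 1166, 709 and 973 under low P. In bud 7 it was 428, 385 and 400 under high P and 590, 748 and 525 under low P. All bud 6 and bud 7 libraries were below all bud 2 libraries, but the distance was greater in high P. The bud 2 mean was 9.69 times the bud 6 mean in high P and 2.67 times in low P, and the log2 differences were -3.27 ± 0.51 (SE) and -1.41 ± 0.51.

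In all 8 comparisons of buds 6 and 7 with bud 2, TAR2 libraries were higher and GH3 libraries lower without overlap. Position separated a large part of the transcriptome, and the share of all genes without overlap was not counted. Genes with an unadjusted limma p below 0.05 ran from 14020 of 22584 (bud 6, low P, experiment 3) to 17023 of 22363 (bud 6, high P, experiment 1). Of all genes tested, 40.2% differed from bud 2 in bud 6 and 34.5% in bud 7 in high P of experiment 1, and 37.7% and 35.8% in low P, where a call needed a difference of more than 2-fold and adjusted p below 0.05 (limma, Benjamini-Hochberg). In experiment 3 these shares were 31.9% and 32.7% for high P libraries, 26% and 30% for low P libraries.

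The buds compared also differed without overlap in cell cycle genes, while their ranges for leaf and xylem genes overlapped in both experiments. The summed count of 14 cell cycle genes was 5073 to 8531 in bud 2 and 27171 to 41045 in buds 6 and 7 of experiment 1. In experiment 3 it was 15311 to 28610 in bud 2 and 32076 to 77959 in buds 6 and 7. The sum of 8 leaf genes (chlorophyll binding proteins, Rubisco small chain and Rubisco activase) was 122267 to 169962 in bud 2 and 51753 to 139705 in buds 6 and 7 of experiment 1, and 42785 to 77677 against 59820 to 157635 in experiment 3. The sum of 3 xylem genes ranged from 617 to 1206 in bud 2 and from 1114 to 2041 in buds 6 and 7 of experiment 1, and from 2150 to 8760 against 2764 to 4757 in experiment 3. Within low P of experiment 3 the leaf sum was 42785 to 77677 in bud 2 and 131836 to 157635 in bud 6. Within low P of experiment 1 the xylem sum was 787 to 835 in bud 2 and 1233 to 1578 in bud 6. The leaf sums of bud 7 lay below those of bud 2 in each treatment of experiment 1. Within high P of experiment 1, buds 2 and 6 overlapped in both sums. Each gene of these lists had a mean of at least 10 in both experiments. Their part in the TAR2 and GH3 differences was not tested, and in whole buds a smaller share of the cells that express a gene and less of its RNA per cell cannot be told apart.

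Bud 3 held a different place in each experiment. In experiment 1 it was close to bud 2 for both genes. TAR2 in bud 3 was 19.0, 3.77 and 21.7 under high P and 5.98, 19.6 and 9.31 under low P, and GH3 was 1375, 3341 and 3936 under high P and 1912, 1467 and 3736 under low P. TAR2 in bud 3 lay above bud 2 without overlap in high P (log2 difference 2.54 ± 0.69, SE) and overlapped it in low P (1.77 ± 0.69). GH3 overlapped bud 2 in both treatments, at 0.04 ± 0.36 and -0.40 ± 0.36. In these comparisons 1.09% and 2.49% of all genes tested were called. The low P TAR2 difference was 0.90 without low P bud 2 replicate 1, and 2.63 without replicate 2.

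In experiment 3, by contrast, bud 3 was near the upper buds. TAR2 in bud 3 was 754, 825 and 1052 in high P, all above bud 2 and within the range of bud 6. In low P it was 1255, 746 and 26.8, the last from the library that stood apart. GH3 in bud 3 was 1119, 906 and 669 in high P, below every bud 2 library and above every bud 6 library of that treatment. In low P it was 496, 745 and 3995, and here too the third library was the one at the level of bud 2. In high P the TAR2 difference between bud 3 and bud 2 was 5.93 ± 0.95 (SE) and that of GH3 was -2.16 ± 0.51, where 29.7% of all genes were called. In low P the differences were 5.80 ± 0.95 and -1.12 ± 0.51, where 16.8% of all genes were called, and without the library that stood apart they were 7.51 and -2.02.

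The place of bud 3 between bud 2 and bud 6 puts both genes on a common scale, on which 0 is the mean of bud 2 and 1 the mean of bud 6 of the same treatment, in log2 values. For TAR2 in experiment 1 the place was 0.313 ± 0.154 (SD, n = 3) in high P and 0.235 ± 0.105 in low P. With 5 in place of 1 as the added constant, these TAR2 places were 0.221 and 0.149. The SD is over the bud 3 libraries and leaves out the spread of the bud 2 and bud 6 means. For GH3 in experiment 1 the place was -0.00883 ± 0.190 and 0.0943 ± 0.162, so bud 3 could not be separated from bud 2. In experiment 3 the high P place was 0.951 ± 0.0398 for TAR2 and 0.660 ± 0.114 for GH3. The 3 low P libraries had places of 1.22, 1.11 and 0.370 for TAR2 and 1.64, 1.23 and -0.490 for GH3, so that replicates 1 and 2 lay beyond the bud 6 mean for both genes and replicate 3 lay toward bud 2 for both. The experiments were separate hydroponic runs and differed in the medium in which plants were raised. They also differed in read length, sequencing depth, version of the processing pipeline and normalization. Whether the place of bud 3 differs between them was not tested.

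**Figure D2:**
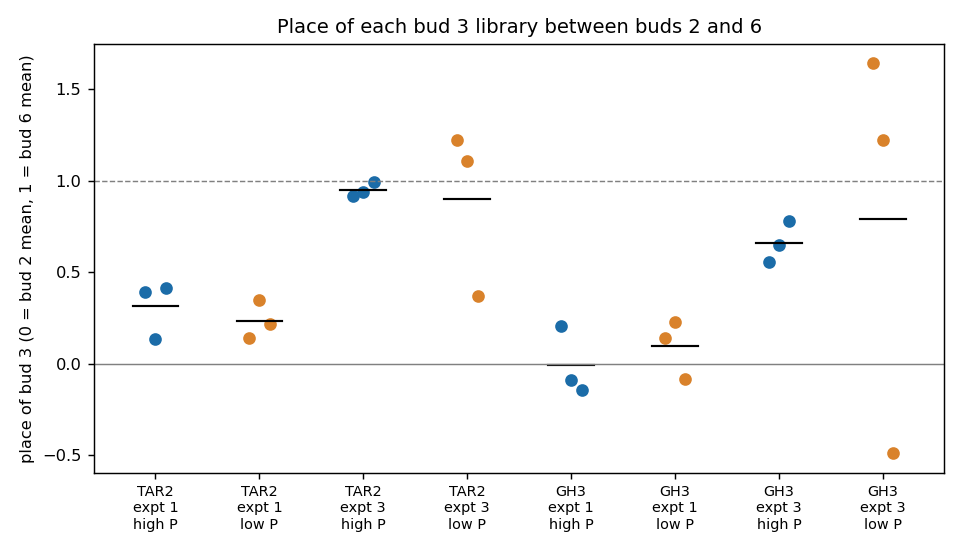
Place of each bud 3 library (points, blue for high P and orange for low P) between the bud 2 mean, at 0, and the bud 6 mean, at 1, of the same treatment, with a black line for the mean of 3 libraries. TAR2 and GH3 lie between -0.145 and 0.413 in experiment 1, and in experiment 3 all but 1 low P library lie above 0.55.

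Set against each other library by library, the genes formed a group with low TAR2 and high GH3 and a group with high TAR2 and low GH3. In experiment 1 all 12 libraries of buds 2 and 3 had TAR2 of at most 21.7 and GH3 of at least 1375, and all 12 of buds 6 and 7 had TAR2 of at least 432 and GH3 of at most 285. In experiment 3 the 6 bud 2 libraries and 1 bud 3 library had TAR2 of at most 26.8 and GH3 of at least 1796. The remaining 17 libraries had TAR2 of at least 424 and GH3 of at most 1166. No library had both genes high or both low.

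**Figure D3:**
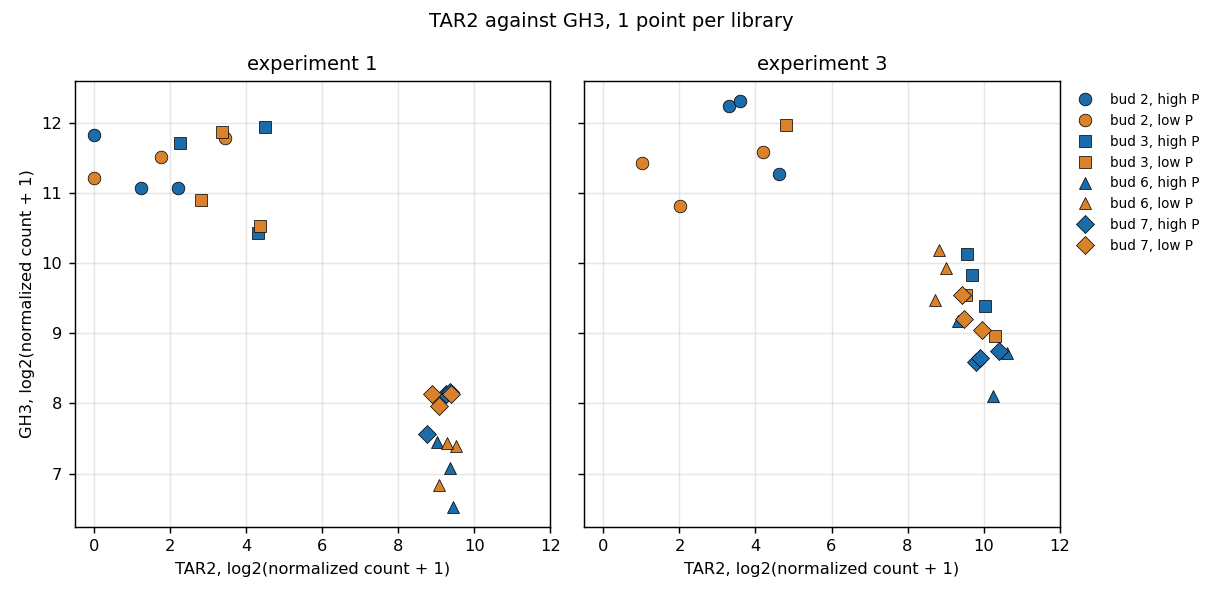
GH3 against TAR2 in each library, both as log2(normalized count + 1), with bud position as the symbol and phosphate treatment as the color. In experiment 1 the 12 libraries of buds 2 and 3 and the 12 of buds 6 and 7 form separate groups, and in experiment 3 the bud 3 libraries sit with buds 6 and 7 except for 1 low P library.

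Moving plants from high to low P for 24 h had no detectable effect on either gene in experiment 1. TAR2 differed, low P minus high P, by 0.59, -0.18, 0.02 and 0.00 on the log2 scale for buds 2, 3, 6 and 7, each ± 0.69 (SE). The limma adjusted p-values were 0.902, 0.985, 1.00 and 1. GH3 differed by 0.18, -0.26, 0.20 and 0.13, each ± 0.36, with limma adjusted p between 0.944 and 1. The libraries of the treatments overlapped in every bud for both genes. The 95% intervals for bud 6 ran from -1.41 to 1.46 for TAR2 and from -0.55 to 0.96 for GH3. In this fit, changes of up to about those sizes cannot be set aside. The width of these intervals comes from a spread shared across all 8 groups. The log2 SD of TAR2 was 0.22 and 0.23 in high and low P of bud 6, against 1.11 and 1.73 in bud 2. Few genes of any kind passed in this experiment, with 0.0134%, 0.00447%, 0.00447% and 0% of all genes called in buds 2, 3, 6 and 7.

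Moving plants from low to high P in experiment 3 gave larger differences. None of them passed in a single bud in the fit over all 24 libraries. TAR2 in bud 6 was 647 to 1576 under high P and 424 to 513 under low P, with no overlap, and the means were 1143 ± 468 (SD) and 464 ± 45.2. Its log2 difference, high minus low P, was 1.21 ± 0.95 (SE), with an adjusted p of 0.355 in the limma fit over all 24 libraries. In bud 2 the difference was 1.42 ± 0.95, in bud 3 1.55 ± 0.95 and in bud 7 0.40 ± 0.95, with limma adjusted p of 0.334, 0.221 and 0.800 and overlapping libraries.

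The bud 3 value of TAR2 was set by single libraries. Without low P replicate 3, the library that stood apart, it was -0.16 (limma adjusted p = 0.924). Without low P replicate 1 it was 2.59 and passed (limma adjusted p = 0.0305). Over the alternatives tried, the adjusted p of this difference ran from 0.0305 to 0.924.

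No phosphate difference of GH3 passed in the fit over all 24 libraries of experiment 3. In bud 6 it was 275 to 579 under high P and 709 to 1166 under low P, with no overlap and means of 425 ± 152 (SD) and 949 ± 229. The log2 difference was -1.19 ± 0.51 (SE), with a 95% interval from -2.27 to -0.12 and a limma adjusted p of 0.0874. In bud 7 all 3 high P libraries, at 385 to 428, were below all 3 low P libraries, at 525 to 748, with a log2 difference of -0.60 ± 0.51 (limma adjusted p = 0.429). In bud 2 the difference had the other sign, 0.67 ± 0.51 (limma adjusted p = 0.406), and the libraries overlapped. In bud 3 it was -0.37 ± 0.51 (limma adjusted p = 0.599), and 0.53 without the library that stood apart.

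The shares of all genes called for phosphate in experiment 3 were 2.78%, 7.82%, 7.59% and 4.35% for buds 2, 3, 6 and 7. Of 22584 genes tested, 9310 in bud 6 and 7687 in bud 7 had an unadjusted limma p below 0.05. How many genes lacked overlap between treatments was not counted. In a fit to the 6 bud 6 libraries alone, both genes passed, with limma adjusted p of 0.0299 for TAR2 and 0.0286 for GH3. The fit over all 24 libraries instead shares its estimate of spread across all 8 groups. The log2 SD in low P bud 3 was 2.98 for TAR2 and 1.59 for GH3. In high and low P of bud 6 it was 0.66 and 0.14 for TAR2, and 0.54 and 0.36 for GH3. The bud 6 difference was not refitted without the low P bud 3 library that stood apart. In a fit to the 6 bud 7 libraries alone GH3 had a limma adjusted p of 0.0329, at less than 2-fold. With library weights GH3 in bud 6 passed as well (-1.25, limma adjusted p = 0.00552) and TAR2 did not (1.12, limma adjusted p = 0.145). Over all alternatives the adjusted p in bud 6 ran from 0.0299 to 0.571 for TAR2 and from 0.00552 to 0.270 for GH3.

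**Figure D4:**
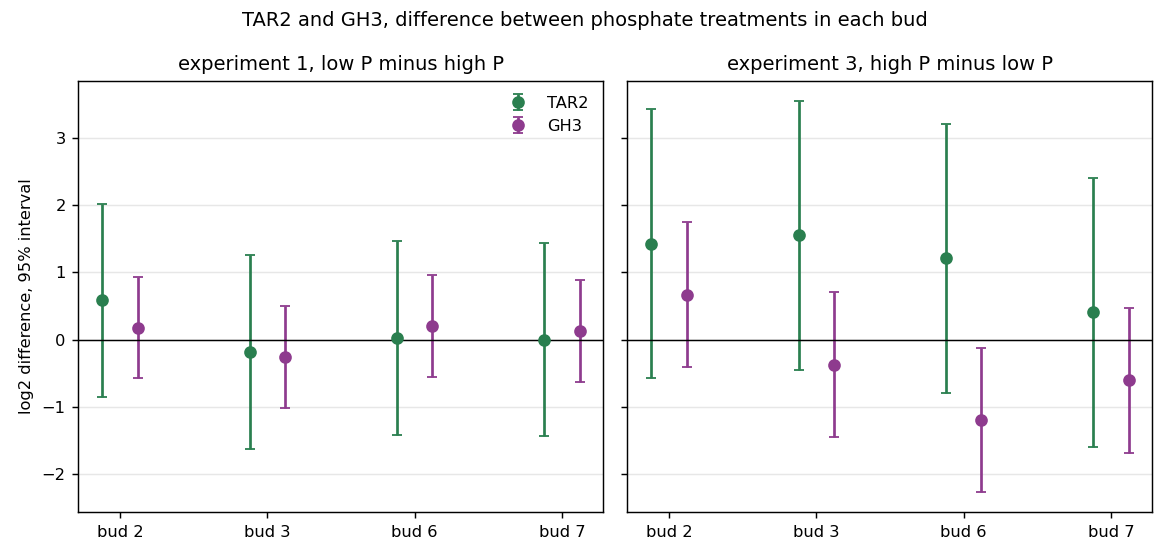
Log2 difference between phosphate treatments for TAR2 and GH3 in each bud, with 95% intervals, low P minus high P in experiment 1 and high P minus low P in experiment 3. Experiment 1 values lie between -0.26 and 0.59, and in experiment 3 the GH3 interval in bud 6, from -2.27 to -0.12, is the only one that leaves out 0.

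A test over buds asked whether each gene moved on average. Treatments were exchanged within each bud in all 160000 arrangements, and 4 such tests were made, 1 per gene and experiment. TAR2 in experiment 3 was higher in high P by a mean of 1.15 on the log2 scale, in 4 of 4 buds, with an exact two-sided permutation p of 0.0115, or 0.0461 after Benjamini-Hochberg adjustment over the 4 tests. Without low P bud 3 replicate 3 the mean fell to 0.72, with an exact permutation p of 0.0272 and 0.109 after adjustment, so that the call rested on this library. Leaving out all libraries numbered 1, 2 or 3 in turn gave means from 0.98 to 1.32 and adjusted exact permutation p from 0.0617 to 0.377. GH3 in experiment 3 had a mean of -0.38 (exact permutation p = 0.227, adjusted 0.454). In experiment 1 the means were 0.11 for TAR2 (exact permutation p = 0.763) and 0.06 for GH3 (exact permutation p = 0.742), both 0.763 after adjustment. Pools of different buds can come from the same plants, which this test treats as separate. In bud 6 of experiment 3, CDKB1 also rose with high P (1.02 ± 0.29, SE, limma adjusted p = 0.0147), and its part in the TAR2 and GH3 values was not tested.

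Whether the phosphate effect differed between positions was tested as an interaction. In experiment 3 the GH3 effect in bud 6 minus that in bud 2 was -1.86 ± 0.73 (SE), with a 95% interval from -3.38 to -0.34 and a limma adjusted p of 0.505. Over the alternatives tried it ran from -2.19 to -1.58, with limma adjusted p from 0.0508 to 0.866. For bud 7 the difference was -1.27 ± 0.73 (limma adjusted p = 0.890) and for bud 3 -1.04 ± 0.73 (limma adjusted p = 0.747). TAR2 gave 0.13, -0.21 and -1.02, each ± 1.35, for buds 3, 6 and 7, with limma adjusted p from 0.974 to 0.979. Without the low P bud 3 library that stood apart, the bud 3 differences were -0.14 for GH3 and -1.58 for TAR2, the latter with its sign turned, and neither passed. In experiment 1 the 6 differences lay between -0.77 and 0.02 with limma adjusted p of 1.00. None of the 12 passed, and the share of all genes that passed was 0% in 4 of these 6 comparisons, 0.0133% for bud 6 and 0.00443% for bud 7 of experiment 3.

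Around these members, 20 other genes whose descriptions in the study's tables name auxin or an auxin protein family were examined by role. The tables list genes that differ in these same libraries, so the directions, adjusted p-values and shares called of these 20 are not independent evidence. They are given below as descriptions, with the share over all genes for scale. In experiment 1, 8 of 19 tested were higher and 7 lower in bud 6 under high P, where 16.7% of all genes tested were higher and 23.5% lower. Under low P these were 9 and 7 of 19, beside 15.9% and 21.8% of all genes. In experiment 3, 7 of 20 tested were higher and 8 lower in bud 6 in high P, beside 13.1% and 18.8% of all genes, and 8 and 5 under low P, beside 12.6% and 13.4%. For bud 7, 16 of 19 differed in each treatment of experiment 1, and in experiment 3 14 of 20 differed in high P and 13 of 20 under low P, beside the shares of 30% to 35.8% of all genes given above. The median log2 difference of the list for bud 6 was -0.43 in high P of experiment 1, against -0.06 over all genes tested, and 0.23 in high P of experiment 3, against -0.03. Under low P it was -0.17 against -0.05 in experiment 1, and in experiment 3 it was 0.0044 against 0.0051.

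The other GH3 genes did not all share the arrangement of the GH3 member. GH3 (Scf01306g00016), whose levels in experiment 1 were 16877 to 25630 in bud 2 and 4325 to 9560 in buds 6 and 7, was lower in bud 6 by a log2 difference of -1.93 ± 0.20 (SE) in high P (limma adjusted p = 3.97e-08) and -2.02 ± 0.20 in low P (limma adjusted p = 2.52e-08). In experiment 3 its bud 6 difference was -1.07 ± 0.37 in high P (limma adjusted p = 0.0171), and in low P, at -0.70 ± 0.37, it did not pass (limma adjusted p = 0.114). GH3 (Scf01258g00119) ran the other way. Its levels in experiment 1 were 651 to 1084 in bud 2 and 3050 to 4364 in bud 6, a log2 difference of 2.36 ± 0.18 in high P (limma adjusted p = 7.71e-10) and 2.10 ± 0.18 in low P (limma adjusted p = 4.53e-09). In experiment 3 it was higher in bud 6 by 2.46 ± 0.31 and 2.13 ± 0.31 (limma adjusted p = 8.65e-06 and 4.98e-05). Thus 2 of the 3 GH3 genes were high in bud 2 and 1 was high in buds 6 and 7. Reads of related GH3 genes could have been divided among them in the counting, and their similarity was not examined here.

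ILL4-like, named for Arabidopsis hydrolases that release auxin from amino acid conjugates, was lower in bud 6 of experiment 3 in high P (-1.96 ± 0.41, SE, limma adjusted p = 5.12e-04). It was at -0.81 ± 0.41 in low P, which did not pass (limma adjusted p = 0.0980). In experiment 1 its counts were 825 to 5565 in the 4 high P libraries numbered 1 and 57.6 to 486 in the other 20. Its bud 6 difference there was -2.04 ± 1.05 in high P and -1.97 ± 1.05 in low P, of the size of the high P value of experiment 3 with a larger error, and no position difference passed (limma adjusted p = 0.0863 and 0.101 for bud 6).

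Among transporters, PIN6, of the PIN family of auxin carriers, was higher in bud 6 than in bud 2 in both treatments of both experiments. PIN6 was higher by 4.04 ± 0.48 (SE, log2) in high P of experiment 1 and by 2.15 ± 0.35 in high P of experiment 3 (limma adjusted p = 3.02e-07 and 7.75e-05). PIN5-type (Scf00309g00112), of a group that in Arabidopsis lies on internal membranes, was lower by -3.80 ± 0.43 and -2.52 ± 0.54 (limma adjusted p = 1.58e-07 and 6.28e-04). The influx carrier gene LAX5-like was higher in bud 6 in all 4 comparisons and LAX2-like only in the 2 of experiment 1, a difference between experiments that was not tested.

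Of the auxin response factors, ARF19 and ARF9 were higher in bud 6 and ARF11 was lower, in all 4 comparisons. ARF19, a transcriptional activator in Arabidopsis, was higher by 3.19 ± 0.21 (SE, log2) in high P of experiment 1 and 2.24 ± 0.35 in high P of experiment 3 (limma adjusted p = 1.24e-10 and 5.65e-05). ARF9 was higher by 2.46 ± 0.15 and 2.10 ± 0.25 (limma adjusted p = 3.49e-11 and 6.10e-06). ARF11 was lower by -2.11 ± 0.22 and -3.93 ± 0.42 (limma adjusted p = 3.64e-08 and 2.40e-06). IAA4-like, of the Aux/IAA repressor family, passed in none of the 12 position comparisons, and its bud 6 differences lay between -0.92 and -0.21. The auxin-responsive genes were split, with SAUR (Scf00767g00033), auxin-responsive family (Scf00147g01713) and dormancy/auxin associated (Scf00037g01327) lower in bud 6 in high P of both experiments, SAUR6 lower in those as well, and auxin-responsive family (Scf00324g00720) higher in bud 6 in 3 of 4 comparisons. ABP1, named for an auxin-binding protein, was higher in buds 6 and 7 in both treatments of experiment 1 and passed in no position comparison of experiment 3, a difference between experiments that was not tested. SAUR (Scf00684g00013) passed in 1 position comparison, bud 6 in low P of experiment 3, where it was higher.

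**Figure D5:**
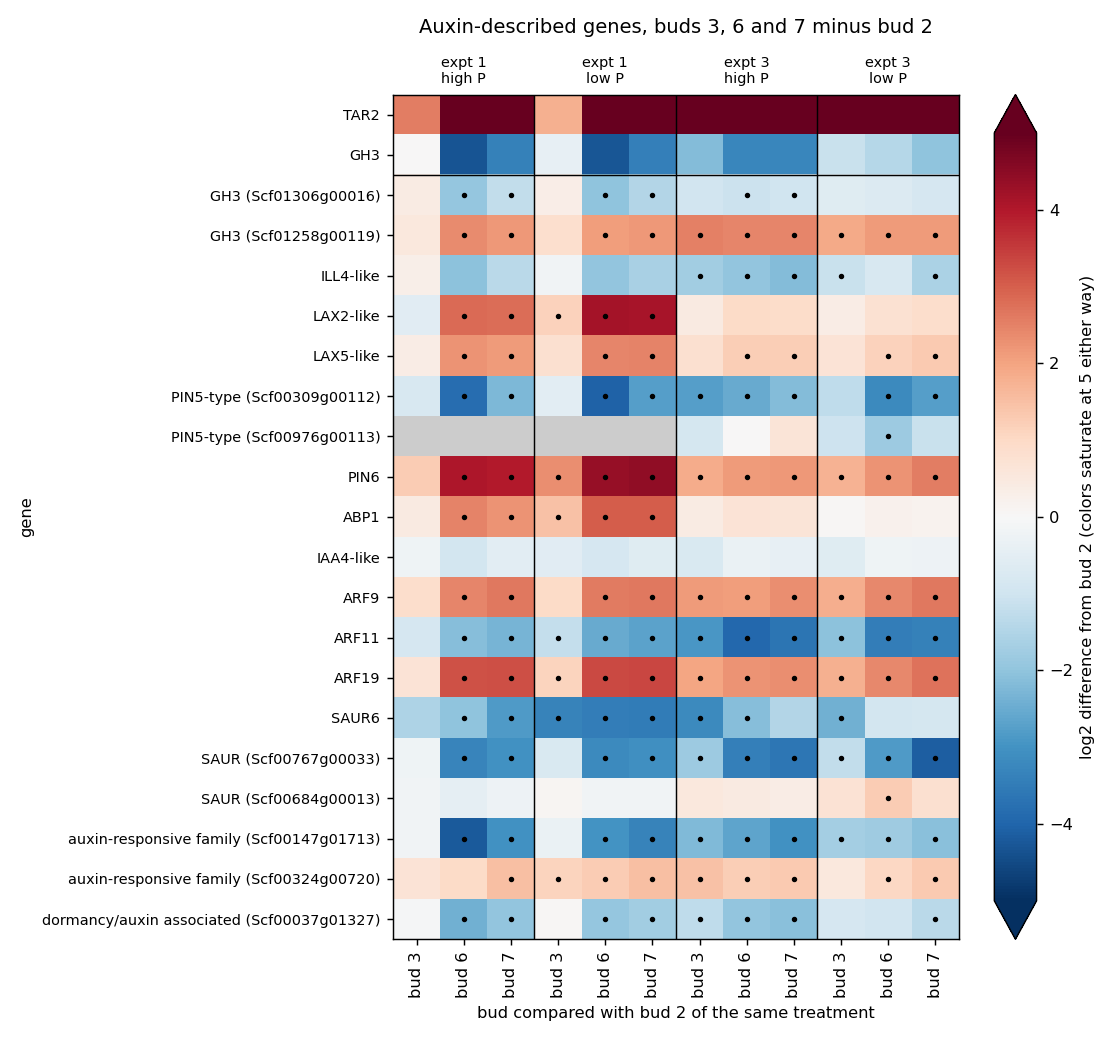
Log2 difference from bud 2 of the same treatment for TAR2, GH3 and 19 of the 20 other auxin-described genes (rows) in buds 3, 6 and 7 of each experiment and treatment (columns), red for higher and blue for lower, gray where a gene was not tested. Dots mark calls at more than 2-fold and adjusted p below 0.05 for these 19 genes only, and most of the dots lie in the columns of buds 6 and 7.

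The list counts for bud 3 were set side by side, without a test between experiments. In experiment 1 none of 19 passed in high P and 7 passed under low P, beside 1.09% and 2.49% of all genes. In high P, 9 of the 19 had an unadjusted p below 0.05 in limma, beside 4337 of the 22363 genes tested. In experiment 3, 13 of 20 passed in high P and 9 under low P, beside 29.7% and 16.8%, and the low P total of 9 became 16 without the library that stood apart.

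Phosphate calls among the 20 were compared with those over all genes. In experiment 1 none passed in any bud by limma, with 4, 1, 2 and 0 of 19 at an unadjusted p below 0.05 in buds 2, 3, 6 and 7. Of the 22363 genes tested, 1335, 1187, 1375 and 299 had such a p in these buds. In experiment 3 none rose with high P, and 1, 3, 2 and 0 of 20 fell for buds 2, 3, 6 and 7, or 5%, 15%, 10% and 0% of the list. Over all genes 2.78%, 7.82%, 7.59% and 4.35% were called in either direction, so the list counts in either direction, of at most 3 genes, were near the background. The share of all genes that fell, the like background for falls alone, is not given here. PIN5-type (Scf00976g00113) fell in bud 2 (-2.36 ± 0.57, SE, limma adjusted p = 0.0160) and bud 3 (-2.23 ± 0.57, limma adjusted p = 0.0108). PIN5-type (Scf00309g00112) and SAUR (Scf00767g00033) fell in bud 3, and SAUR (Scf00767g00033) also fell in bud 6 (-1.69 ± 0.48, limma adjusted p = 0.0145). ILL4-like fell in bud 6 (-1.53 ± 0.41, limma adjusted p = 0.0106). The bud 3 count of 3 was 0 without the low P library that stood apart and 7 without low P replicate 1. In bud 2 the count of 1 became 0 when any of 4 single libraries (high P replicate 1 or 2, low P replicate 1 or 3) was left out. In bud 6 the count of 2 became 0 without high P replicate 1, and 1 without high P replicate 2 or low P replicate 1 or 2.

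Genes with the most similar patterns were ranked by the lower of their Pearson correlations with a member over the 24 libraries of experiment 1 and the 24 of experiment 3, among 21786 genes tested in both. These are descriptions, dominated by the separation of bud positions that all points share. For TAR2, the 5 closest included homeobox protein 33 (Scf00280g01015, r = 0.978 and 0.980) and growth-regulating factor 5 (Scf00724g00713, r = 0.980 and 0.978), which in Arabidopsis promotes cell proliferation in leaves. Growth-regulating factor 5 had a mean count of 151 in bud 2 and 1596 in bud 6 in high P of experiment 1, and 187 and 2348 in experiment 3. Of the 3 most opposite genes 1 carried a description, a pathogen-related protein (Scf00263g00515, r = -0.958 and -0.968). Altogether 1340 genes exceeded 0.9 with TAR2 in both experiments and 832 were below -0.9.

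For GH3, the 5 closest included lysine histidine transporter 1 (Scf00789g00035, r = 0.971 and 0.964), an amino acid carrier in Arabidopsis, a lectin protein kinase (Scf00918g00415, r = 0.978 and 0.952) and another protein kinase (Scf00032g00422, r = 0.959 and 0.952). The lysine histidine transporter had means of 2590 in bud 2 and 129 in bud 6 in high P of experiment 1, and of 3149 and 390 in experiment 3. Histone H2A 12 (Scf00039g01221) was the most opposite, with r = -0.941 and -0.940. Fewer genes tracked GH3 than TAR2 this closely, with 495 above 0.9 in both experiments and 246 below -0.9.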

How the data were processed

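The deposited values are a signal, normalized counts per gene, made by the authors from reads trimmed with Trim Galore, quantified with Salmon on the Petunia axillaris genome and scaled with DESeq2 size factors in each experiment (the submitters' processing notes also name STAR and FastQC). Whole reads could not be recovered, so count models were not used and no per-library read depth was used; the study's methods state deeper sequencing in experiment 3 than in experiment 1. Values were analysed as log2(value + 1) with limma 3.58.1 (R 4.3.3), using a variance trend, a mean for each of the 8 groups, all 24 libraries of an experiment, genes with a mean of at least 10 (22363 and 22584) and Benjamini-Hochberg adjustment over them. A call needed more than 2-fold and adjusted p below 0.05. The fit was tested on simulated data. The members, lists and tests were chosen with earlier results of these data known. Named genes are the members, the other 20 auxin-described genes, 5 most alike and 3 most opposite genes per member (only those with a description are named), CDKB1, SPX3 and DRM1. The values of 1 gene of the auxin list, counted in the totals, are not reported here. Columns of no sample numbered 0. Replicates are separate pools, and p-values measure only the spread between them. Same-numbered libraries deviated together (every correlation over 0.1) in 6 comparisons, all in experiment 1: buds 6 and 7 against bud 2 in high P, buds 3, 6 and 7 against bud 2 in low P, and low against high P in bud 2. No source used here ties the numbers to shared plants or days. Figures were drawn with matplotlib.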

Additional observations from a re-analysis of the deposited data

How the results depend on the processing

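The alternatives were a pseudocount of 0.5 or 5, no filter or a mean of at least 50, upper-quartile scaling, quantile normalization, library weights estimated gene by gene, a fit to the compared libraries only, a replicate block, experiment 1 without its high P libraries numbered 1, and leaving out libraries in turn. With a pseudocount of 5, the TAR2 differences from bud 2 in experiment 1 became 1.45 for bud 3 in high P, 6.58 and 6.27 for bud 6 in high and low P, and 6.43 and 6.10 for bud 7. Library weights moved the TAR2 difference of bud 3 in low P of experiment 3 to 7.09. They also moved the number of auxin-described genes called there to 15, and the number called for phosphate to 2 in bud 2 and 3 in bud 7, and brought GH3 in bud 6 past the threshold (-1.25). In fits to the compared libraries only, GH3 (-1.19) and TAR2 (1.21) passed for phosphate in bud 6 of experiment 3. In these fits the list counts were 3 for bud 3 in low P of experiment 1, 0 for bud 3 in low P of experiment 3, and 2, 0 and 1 for phosphate in buds 2, 3 and 7 of experiment 3. Such fits rest on fewer libraries. Without the high P libraries numbered 1, experiment 1 had list counts of 4 for bud 3 in high P and 1 for phosphate in bud 6. Where no reason is given, the cause was not tested.

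With single libraries left out, the GH3 difference of bud 3 from bud 2 ran from -0.25 to 0.50 in high P of experiment 1 and from -2.02 to -0.52 in low P of experiment 3. The TAR2 differences in low P of experiment 1 ran from 0.90 to 2.63 for bud 3, 6.69 to 8.42 for bud 6 and 6.51 to 8.24 for bud 7, each lowest without low P bud 2 replicate 1 and highest without replicate 2. That of bud 3 in low P of experiment 3 ran from 4.76 to 7.51. The phosphate difference of TAR2 in experiment 3 ran from -0.16 to 2.59 in bud 3, and its mean over buds from 0.72 to 1.32. List counts ran from 0 to 1 for bud 3 in high P of experiment 1, from 6 to 16 for bud 3 in low P of experiment 3, and, for phosphate in experiment 3, from 0 to 2 in bud 2, 0 to 7 in bud 3 and 0 to 3 in bud 6.

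The replicate block changed no call for TAR2 or GH3. With it, the bud 6 phosphate adjusted p of experiment 3 was 0.0960 for GH3 and 0.373 for TAR2 (limma). Of 528 recomputed phosphate differences and interactions, 53 changed sign without passing under either setting, 39 of them in experiment 1. Quantile normalization moved the median position difference over all genes, for example from -0.06 to 0.13 for bud 6 in high P of experiment 1, which is small beside the differences of both genes. Ranked by Spearman's rho, 0 of the genes named as most alike or most opposite kept their place among those named. Values were scaled before deposit and whole reads could not be recovered, so no counting error is given, and TAR2 in bud 2 lay too low for its differences between treatments there to be read closely.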
